A study of Cicer arietinum with 8 samples.

Results

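Chickpea (Cicer arietinum) seedlings of genotype ICC4958, aged 10 days, gave roots that had been held for 5 h in 150 mM NaCl, and these were set against roots of the same genotype and age held for 5 h in water. Each of these conditions is represented by 1 library of messenger RNA. The members are annotated gene models, that is loci whose ID comes from the genome annotation and is not a bare locus number, that reached at least 1 FPKM in either library. FPKM (the fragments of a gene scaled by its exon length and by all mapped fragments) corrects for gene length and library total, so levels can be set side by side between genes. Of 27248 annotated gene models among 34193 loci in all, 16129 met this minimum, and 11119 stayed under 1 FPKM in both libraries, 8590 of which were listed at 0 in both. The highest value lay between 0.9 and 1 FPKM at 160 gene models just outside the minimum and between 1 and 1.1 FPKM at 134 just inside it. The same study sampled roots of seedlings laid on tissue paper (desiccation) or kept in water at 4 ± 1 °C (cold), and shoots under all 4 treatments, again with 1 library each. Treatment time (5 h) and age (10 days) were the same in these libraries. The labels do not say how many seedlings went into a library, nor whether roots and shoots came from the same plants.

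A salt solution acts on a root in more than one way. It lowers the water potential outside the root, which hinders water uptake much as drought does, and it brings sodium and chloride into cells, where sodium competes with potassium. In plants, roots answer with abscisic acid signalling, export and vacuolar storage of sodium, compatible solutes, protective proteins of the late embryogenesis abundant family and altered growth. The gene table used here shares no ID with the deposited files (0 gene models matched), and the files pair their IDs with no names. No gene model below is therefore given a name or a role, none can be assigned to these pathways, and only the 2 gene models with the largest increase and the 2 with the largest decrease are cited by ID.

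With 1 library on each side, the spread between replicates is unknown, so all comparisons below are of size and none carries a p-value. Differences are of log2(FPKM + 1), which understates the fold of weakly expressed genes, and a gene model counts as higher or lower when this differs by at least 1, which is called 2-fold here. Relative sequencing depth, read from ratios of values below 0.3 FPKM at the most frequent ratio, where equal fragment numbers were assumed, was estimated at 1.30 times that of the root control in root salinity, and at 1.21 to 1.30 times in the other libraries. The estimate for root salinity rests on 78 of 773 low loci. The depth in reads is not given in the sources used here. The step of 1 fragment depends on the length of the gene, so the counting error of a single value is not known, and it is greatest near 1 FPKM and, by this estimate, in the root control.

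Since no tissue marker can be named, the root label was checked against gene models chosen in other libraries. There were 394 with at least 5 FPKM in desiccated and cold root and under 1 FPKM in desiccated and cold shoot. In root salinity 363 of them (92.1%) reached 1 FPKM, as did 369 (93.7%) in the root control. Their median level was 8.02 FPKM in root salinity and 12.2 FPKM in the root control. Of 369 gene models chosen the opposite way, as shoot genes, 97 (26.3%) reached 1 FPKM in root salinity and 80 (21.7%) in the root control, and their median level was 0.319 FPKM in root salinity and 0.270 FPKM in the root control. They made up 0.0556% of the summed FPKM of gene models in root salinity and 0.0710% in the root control. In shoot they made up 4.84% under salinity and 5.26% in the control. The shoot libraries used to choose them had 4.02% (desiccation) and 5.56% (cold). Root salinity and root control thus both carried the root set and little of the shoot set. Of the 386 root-set gene models at 1 FPKM or more in either library, 85 (22.0%) were at least 2-fold higher in root salinity and 148 (38.3%) at least 2-fold lower, against 14.9% higher and 11.8% lower of all gene models considered. These were chosen for a high level in desiccated and cold root. In whole roots, fewer cells of a type and less RNA per cell cannot be told apart, and the part of cell make-up in the results below was not tested.

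Salt-stressed root differed from control root at 26.7% of the expressed gene models, and the largest differences were mostly increases. Of the 16129 gene models, 2401 were at least 2-fold higher in root salinity (14.9%) and 1901 at least 2-fold lower (11.8%), or 26.7% together. The remaining 11827 (73.3%) lay within 2-fold. The median difference was 0.01 on the log2 scale and the middle part of the distribution, between the quartiles, ran from -0.56 to 0.63. The outer ends were unequal, with the 1st percentile at -2.65 and the 99th at 3.50. The balance of higher and lower gene models near 2-fold depended on the scaling of the libraries. Quantile normalization gave 2100 higher and 2101 lower, and an equal sum over gene models gave 2785 higher and 1624 lower and moved the median difference to 0.12.

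The excess of increases was larger past 4-fold than below it, and largest at 16-fold or more. Between 2-fold and 4-fold, 1668 gene models were higher in root salinity and 1527 lower, so that 52.2% were higher. Between 4-fold and 8-fold there were 492 higher and 274 lower (64.2% higher), and between 8-fold and 16-fold 138 higher and 79 lower (63.6% higher). At 16-fold or more there were 103 higher and 21 lower (83.1% higher). At 4-fold or more the counts were 733 higher (4.54% of gene models) and 374 lower (2.32%), which makes 66.2% of these 1107 (6.86%) higher. Increases outnumbered decreases at 4-fold or more under the other scalings too. The counts there were 682 higher and 402 lower after quantile normalization, 747 and 365 after scaling by the median ratio, and 808 and 339 at equal sums.

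**Figure D1:**
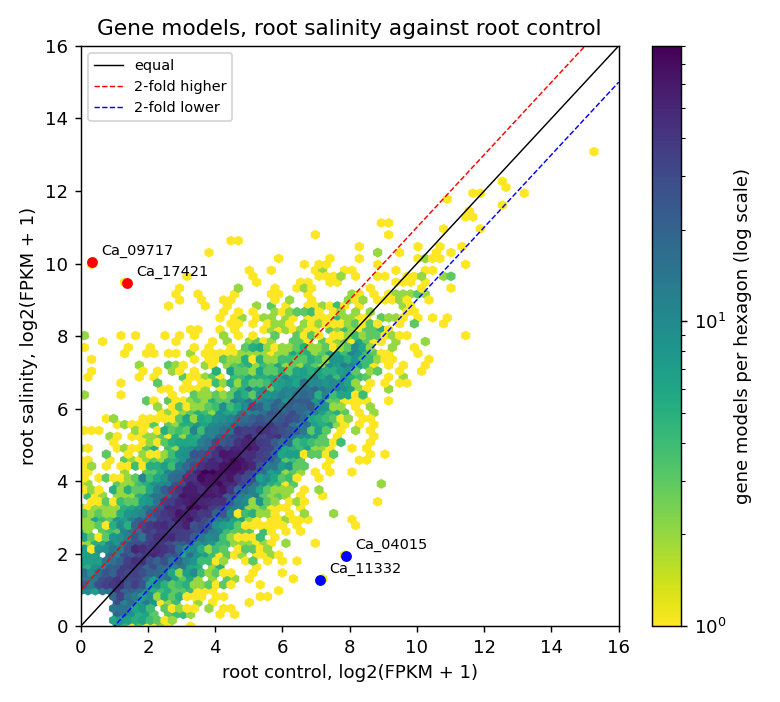
Level of each of 16129 gene models in root salinity (vertical axis) against the root control (horizontal axis), both as log2(FPKM + 1), 1 library each, with the number of gene models per hexagon in colour on a log scale and lines at equality and at 2-fold. Most gene models lie within the 2-fold lines, and the cited gene models Ca_09717 and Ca_17421 stand far above them, Ca_04015 and Ca_11332 far below.

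**Figure D2:**
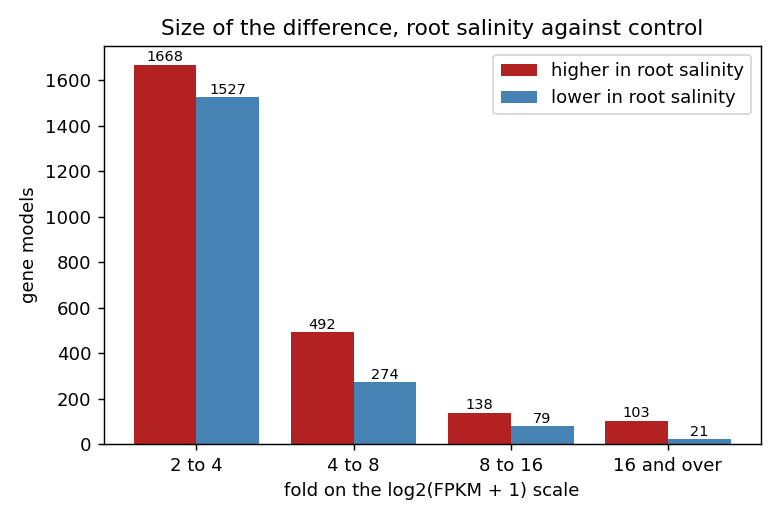
Number of gene models (vertical axis) higher (red) or lower (blue) in root salinity than in the root control, by size class of the fold on the log2(FPKM + 1) scale (horizontal axis). The classes are close at 2-fold to 4-fold (1668 and 1527) and far apart at 16-fold and over (103 and 21).

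The largest increase among gene models with a value above 0 in both libraries was that of Ca_09717. It stood at 1046 FPKM in root salinity, against 0.275 FPKM in the root control, a log2 difference of 9.68. It thereby ranked 39th among the gene models of root salinity and 16768th in the root control. It was also well above the control level in the other stressed roots, with 356 FPKM in desiccated root and 48.8 FPKM in cold root. In shoot it stood at 0.242 FPKM under salinity, 0.333 FPKM under desiccation and 0.0233 FPKM under cold, and was listed at 0 in the control. High levels of this gene model were thus found in the 3 stressed root libraries and in no other library.

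Ca_17421 had the next largest increase, with 699 FPKM in root salinity against 1.63 FPKM in the root control, a log2 difference of 8.06. Its level was 110 FPKM in desiccated root and 140 FPKM in cold root. In shoot it stood at 0.901 FPKM under salinity, 0.219 FPKM under desiccation, 4.93 FPKM under cold and 0.792 FPKM in the control. As with Ca_09717, the salt-stressed root was the highest of the 8 libraries and the other stressed roots came next. The next largest increase after these stood at 7.35 on the log2 scale. This holds among the 12572 gene models on loci with 1 ID, above 0 in both libraries and at 5 FPKM or more in the higher one.

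Ca_04015 had the largest decrease. It stood at 2.82 FPKM in root salinity, against 238 FPKM in the root control, a log2 difference of -5.97, with 19.8 FPKM in desiccated root and 15.5 FPKM in cold root. In shoot its level was high in every library, at 390 FPKM under salinity, 568 FPKM under desiccation, 513 FPKM under cold and 362 FPKM in the control. Its low levels were therefore those of the stressed roots, and no shoot library was below the root control.

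Ca_11332 followed, at 1.40 FPKM in root salinity against 138 FPKM in the root control, a log2 difference of -5.85. Desiccated root had 3.22 FPKM and cold root 11.7 FPKM. Shoot had 1.59 FPKM under salinity, 1.70 FPKM under desiccation, 3.61 FPKM under cold and 3.61 FPKM in the control. The unstressed root was far above all other libraries for this gene model, shoots included.

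**Figure D3:**
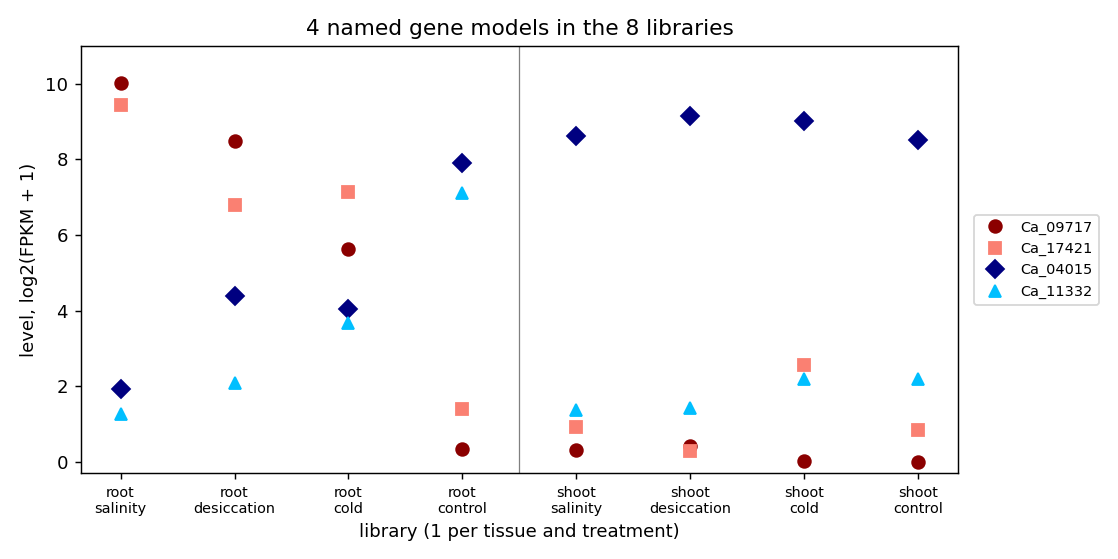
Level of 4 gene models, as log2(FPKM + 1) on the vertical axis, in each of the 8 libraries on the horizontal axis, 4 from root left of the line and 4 from shoot right of it. Ca_09717 and Ca_17421 are highest in root salinity and low in the root control and in shoot, while Ca_04015 is lowest in root salinity and high in all shoot libraries.

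Some differences ran between expressed and barely expressed. Of the gene models considered, 14933 (92.6%) reached 1 FPKM in both libraries, 692 did so in root salinity only and 504 in the root control only. Those found in root salinity only had a median of 1.89 FPKM there and a highest value of 1046 FPKM, and 121 of them reached 5 FPKM and 29 reached 20 FPKM. Those found in the root control only had a median of 1.73 FPKM there and a highest value of 48.3 FPKM, with 59 at 5 FPKM or more and 5 at 20 FPKM or more. Most of these gene models were thus weak in either library, and the strong ones were more often those present under salinity.

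A value listed at 0 can be a failed estimate, so such gene models are also counted separately here, with no fold given for them. They are included in the counts above, which take the value as 0. In the root control 68 were listed at 0 that reached at least 1 FPKM in root salinity, with a median of 2.11 FPKM and a highest value of 251 FPKM there. In root salinity 18 were listed at 0 that reached at least 1 FPKM in the root control, with a median of 1.50 FPKM and a highest value of 8.53 FPKM there. Counting no gene model under 1 FPKM in either library, 2047 were higher and 1682 lower.

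At the 2-fold threshold, the abundant transcripts of the root were more often lower than higher under salinity. Among the top 1000, but not among the top 100, the largest differences were more often increases. To choose abundant gene models without the 2 libraries compared, they were ranked by their mean log2 level in desiccated and cold root. This choice is not neutral if those roots resemble the root control more than root salinity, and its effect on the counts was not tested. Of the top 100, 9 were at least 2-fold higher in root salinity and 30 at least 2-fold lower, with a median log2 difference of -0.65. At 4-fold or more, 4 of the top 100 were higher and 6 lower, and at 8-fold or more 1 was higher and 3 lower. Of the top 1000, 139 were higher and 257 lower, with a median of -0.53. At larger folds the order in the top 1000 turned, with 66 higher and 51 lower at 4-fold or more, 28 higher and 10 lower at 8-fold or more, and 17 higher and 1 lower at 16-fold or more. Among the 4172 weakest, under 5 FPKM by the same mean, 766 (18.4%) were higher and 440 (10.5%) lower, with a median of 0.17. By the mean log2 level of the 2 compared libraries instead, 174 were higher and 231 lower from 100 FPKM. By that mean, 757 were higher and 626 lower from 20 to 100 FPKM. From 5 to 20 FPKM there were 875 and 610, and under 5 FPKM 595 and 434. At 2-fold, decreases also outnumbered increases in the top 1000 after quantile normalization (145 higher and 253 lower), scaling by the median ratio (142 and 246) and at equal sums (154 and 215). At 4-fold, increases outnumbered decreases there under the same scalings, with 69 and 54, 67 and 49, and 70 and 46 in that order.

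The make-up of the library also differed near the top. The most abundant gene model was the same one in both libraries, at 8675 FPKM in root salinity and 39384 FPKM in the root control. It made up 1.40% of the summed FPKM of gene models in root salinity and 5.85% in the root control. The top 10 held 6.74% in root salinity and 12.5% in the root control, and the top 100 held 20.9% in root salinity and 27.6% in the root control. It took 921 gene models to hold 50% of the sum in root salinity, against 665 in the root control. Of each library's own 10 most abundant gene models 9 were shared, but of the top 100 only 46 were, and of the top 1000 only 561. Of the root salinity top 100, 52 were at least 2-fold higher in root salinity and 9 lower, and of the root control top 100, 1 was higher and 46 lower. These lists were chosen by the levels compared, so the counts are a description. In absolute level, 40 gene models reached 1000 FPKM in root salinity, against 52 in the root control.

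Gene models as a whole held 52.0% of the summed FPKM of all loci in root salinity and 45.9% in the root control, and the shares below are of the gene models' part alone. Those at least 2-fold higher held 30.1% of the summed FPKM of gene models in root salinity and 6.26% in the root control, with a median of 25.8 FPKM in root salinity and 6.81 FPKM in the root control. Those at least 2-fold lower held 10.8% in root salinity and 32.9% in the root control, with a median of 8.73 FPKM in root salinity and 30.1 FPKM in the root control. The gene models within 2-fold held 59.1% in root salinity and 60.7% in the root control. Of the summed difference of the lower gene models, 10 gene models carried 31.1%, whereas the top 10 among the higher ones carried 9.50%. The 10 lower ones included the most abundant gene model, at 8675 FPKM in root salinity and 39384 FPKM in the root control. The summed difference of all lower gene models was -154882 FPKM, and the share without that gene model was not computed. These classes were defined by the same values, so the shares describe them and test nothing. The summed FPKM of all gene models was 621289 in root salinity and 672970 in the root control.

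Loci without an annotated gene model differed at a larger share. Of 5351 such loci, 1119 (20.9%) were at least 2-fold higher in root salinity and 1023 (19.1%) at least 2-fold lower, 40% together, against 26.7% of gene models. Several annotated IDs stand together on 441 of the gene models considered, of which 82 were higher and 24 lower, so reads of neighbouring genes could be merged there. Without these loci, 2319 gene models were higher and 1877 lower, so that 55.3% were higher, against 55.8% with them. At 266 of the gene models considered the ID also stands on another locus, and 42 of these were higher and 30 lower. Such loci were counted separately. Of all gene models considered, 14.9% were higher and 11.8% lower.

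The next question was how far the salt-stressed root stood apart from all other roots, and not from the control alone. Among the 16475 gene models that reached 1 FPKM in any of the 4 root libraries, root salinity was the highest by at least 2-fold over the next library at 1243 (7.54%) and the lowest by at least 2-fold at 772 (4.69%). Desiccated root stood apart in this way as the highest at 40 and the lowest at 17, and cold root at 56 and 66. The root control was the highest by 2-fold at 478 and the lowest at 474. At 4-fold, root salinity was the highest at 263 and the lowest at 84, against 100 and 115 for the root control and at most 3 for either of the other roots. By construction, 2 libraries that are alike keep each other from standing apart, so these counts depend on which roots were sampled.

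**Figure D4:**
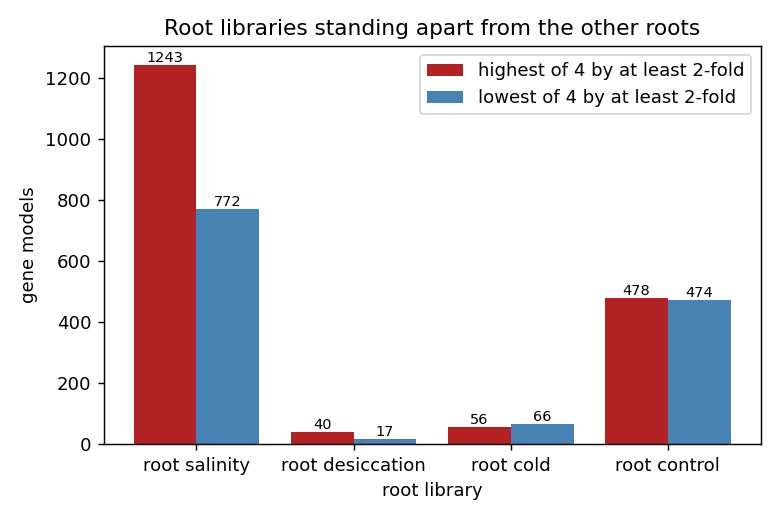
Number of gene models (vertical axis) at which a root library was the highest (red) or the lowest (blue) of the 4 root libraries by at least 2-fold over the next one, for each library (horizontal axis). Root salinity stands apart most often, at 1243 and 772 gene models, and desiccated root least often, at 40 and 17.

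The gene models that differed between root salinity and root control had intermediate levels in the other roots. For the 733 at least 4-fold higher, the median log2 level was 5.79 in root salinity, 4.20 in desiccated root, 3.76 in cold root and 2.88 in the root control. In shoot the medians were 2.99 under salinity, 2.86 under desiccation, 2.82 under cold and 2.38 in the control. For the 103 at least 16-fold higher, the median level was 153 FPKM in root salinity, 31.9 FPKM in desiccated root, 15.3 FPKM in cold root and 3.69 FPKM in the root control. The desiccated and cold libraries were not used to choose these gene models, but a choice by a high salinity and a low control value by itself favours intermediate values elsewhere.

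The decreases had a like order. For the 374 gene models at least 4-fold lower, the median log2 level was 2.51 in root salinity, 4.05 in desiccated root, 3.90 in cold root and 5.42 in the root control. Shoot medians were 2.77 under salinity, 2.64 under desiccation, 3.14 under cold and 3.07 in the control. For the 100 at least 8-fold lower, the median was 3.41 FPKM in root salinity, 16.8 FPKM in desiccated root, 15.8 FPKM in cold root and 60.2 FPKM in the root control. In the shoot libraries the medians of these 100 lay between 2.75 FPKM (desiccation) and 4.01 FPKM (control).

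**Figure D5:**
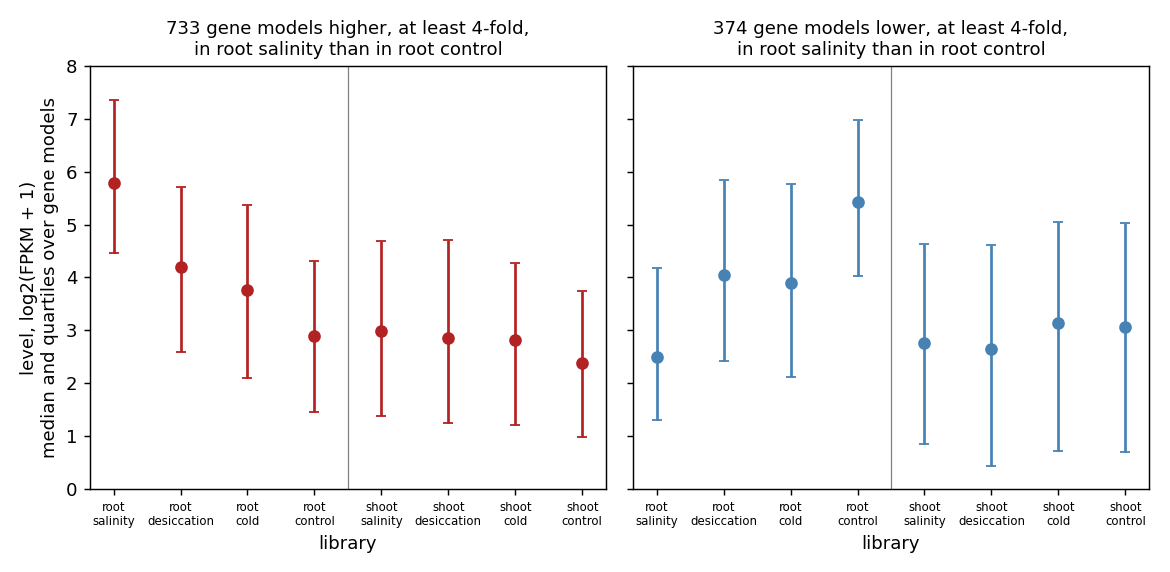
Median (point) and quartiles (bars) over gene models of the level, as log2(FPKM + 1) on the vertical axis, in each of the 8 libraries on the horizontal axis, for the 733 gene models at least 4-fold higher (left) and the 374 at least 4-fold lower (right) in root salinity than in the root control. Desiccated and cold root lie between root salinity and root control in both panels.

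Gene models preferring the root under desiccation and cold differed more often than others. Organ preference was read from desiccated and cold root against desiccated and cold shoot, which are outside the comparison. Of 2886 root-preferring gene models (at least 2-fold on average), 731 (25.3%) were higher in root salinity and 583 (20.2%) lower, 45.5% together. Of 2263 shoot-preferring gene models 308 were higher and 323 lower, 27.9% together. Of the 10980 within 2-fold between the organs 1362 were higher and 995 lower, 21.5% together. The share in root-preferring gene models was between 45.5% and 45.6% under every scaling run, and no test of these shares was made.

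Part of the changed set was hardly expressed in shoot at all. Of the gene models at least 2-fold higher in root salinity, 237 (9.87%) were under 1 FPKM in all 4 shoot libraries, and of those at least 2-fold lower, 232 (12.2%). The share was 13.0% among those at least 4-fold higher, 22.2% among those at least 4-fold lower and 3.47% among those within 2-fold. Of these classes, the strong decreases held the largest share of gene models near absent from shoot.

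The shoot under the same salt treatment gives a comparison that shares no library with the root comparison. There, 1049 of 16044 gene models (6.54%) were at least 2-fold higher under salinity than in the shoot control and 725 (4.52%) at least 2-fold lower, 11.1% together. Of the 2111 root-raised gene models that were also at 1 FPKM or more in either shoot library, 449 (21.3%) were higher in shoot too and 44 (2.08%) were lower. Of the 1653 root-lowered ones, 143 (8.65%) were lower in shoot too and 89 (5.38%) were higher. The 449 raised in both organs are 18.7% of the root list and 42.8% of the shoot list. The 143 lowered in both are 7.52% of the root list and 19.7% of the shoot list. The share found in both organs was larger for increases than for decreases, a difference that was not tested.

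Sharing with the shoot was more frequent at larger root differences. The share also at least 2-fold higher in shoot was 32.1% of the 617 root gene models at least 4-fold higher, 38.9% of the 190 at least 8-fold higher and 45.1% of the 82 at least 16-fold higher. The median shoot difference of these classes was 0.67, 0.78 and 0.92 on the log2 scale, against 0.43 for all root-raised gene models. On the side of the decreases, the share also at least 2-fold lower in shoot was 17.2% of 285 at least 4-fold lower in root and 22.1% of 68 at least 8-fold lower, with median shoot differences of -0.33 and -0.57. Among the 11345 gene models within 2-fold in root, 3.91% were higher in shoot and 3.83% lower, with a median of -0.02. The 4 cited gene models, the extremes in root, had no 2-fold difference in shoot, where Ca_17421 differed by 0.08, Ca_04015 by 0.11 and Ca_11332 by -0.83 on the log2 scale and Ca_09717 stayed under 1 FPKM.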

How the data were processed

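NGS QC Toolkit (read filtering), TopHat (mapping to the chickpea genome) and Cufflinks (FPKM) were the authors' tools, per the labels' protocols and the design text. Their versions, the genome build and the annotation were not given in the sources used here. The deposited FPKM values were used as given, 1 file per library, with groups taken from the sample titles. FPKM divides by the library total, so a few abundant transcripts shift all other values of a library.

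Levels were compared as log2(FPKM + 1) between 1 library and 1 library, among gene models with at least 1 FPKM in either, and no p-value was computed. Relative depth was taken from the most frequent ratio of values under 0.3 FPKM. Gene models cited by ID were the 2 largest increases and 2 largest decreases on loci with 1 ID, above 0 in both libraries and at least 5 FPKM in the higher one. The members, classes and lists were chosen with earlier results of these data known. Lists of gene products planned for the analysis could not be applied, since no ID was annotated. The counting was run on a copy of the root control with exact 4-fold and 8-fold changes planted at well expressed gene models. Values near 2-fold or at low levels were not tested in this way. Python 3.11.15, numpy 2.4.6, pandas 2.3.3 and matplotlib 3.10.9 were used. Alternatives were other pseudocounts, minimums, scalings and thresholds, all loci, and loci with 1 ID.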

Additional observations from a re-analysis of the deposited data

Results flagged for a closer look

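Under salinity 44 gene models were at least 2-fold higher in root and at least 2-fold lower in shoot, and 89 were lower in root and higher in shoot. Each rests on 1 library per organ and treatment, and the difference between the organs was not tested. The 133 together are 3.09% of the root list and 7.50% of the shoot list, whereas 592 gene models differed the same way in both. The 44 are 2.08% of the root-raised gene models considered in shoot, where 4.52% of all gene models considered were lower. The 89 are 5.38% of the root-lowered ones considered in shoot, where 6.54% of all were higher. Both shares were thus below those of all gene models in shoot, which include the gene models changed the same way in both organs. Among gene models within 2-fold in root, 3.83% were lower in shoot and 3.91% higher. The 2.08% lay below the first of these shares, but the 5.38% lay above the second. Of the gene models at least 4-fold lower in root, 7.37% were higher in shoot, and of those at least 8-fold lower 5.88%.

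Ca_04015, the gene model with the largest decrease in root (log2 difference -5.97), differed in the opposite direction in shoot, by 0.106 on the log2 scale, which is under 2-fold and was not tested.

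Loci without an annotated gene model are outside the comparison of gene models. Among them 1119 were at least 2-fold higher in root salinity than in the root control.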

How the results depend on the processing

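No paired analysis was possible because each tissue and treatment has 1 library, and no library could be left out for the same reason. The 2401 higher and 1901 lower gene models became 1454 and 1145 with a pseudocount of 5, and 733 and 374 at a 4-fold threshold. With all loci there were 2924 lower. The 1107 gene models at least 4-fold apart became 628 with a pseudocount of 5 and 1800 with all loci. The 592 changed the same way in shoot salinity became 281 with a pseudocount of 5, 948 with all loci and 67 at a 4-fold threshold. The median log2 difference was 0.0116 and 0.00726 with pseudocounts of 0.1 and 5, -0.00836 with a minimum of 5 FPKM, 0 without a minimum, -0.0726 after quantile normalization, 0.042 after scaling by the median ratio, 0.115 at equal sums, 0.00163 with all loci and 0.00458 on loci with 1 ID. The other 33 counts recomputed stayed within 1.5 times. Those without a minimum are among them and were bound to stay the same. A difference of at least 1 in log2(FPKM + 1) already requires at least 1 FPKM in the higher library. Root salinity was the highest of 4 roots by 2-fold at 1202 gene models and the lowest at 831 after quantile normalization, a setting chosen after seeing the data, as was the minimum of 1 FPKM in both libraries. The 4 cited gene models kept their direction under the pseudocounts and scalings run, with log2 differences of 7.64 to 11.45 for Ca_09717, 6.73 to 8.66 for Ca_17421, -6.35 to -4.96 for Ca_04015 and -6.52 to -4.48 for Ca_11332. A larger pseudocount shrinks differences by construction.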
